A study of Mus musculus with 12 samples.

Results

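The genes described here are 31 genes of the smooth muscle contractile apparatus, chosen by name and matched to 31 of the 53715 gene identifiers in the count table through GENCODE M21, the mouse annotation of genome build GRCm38 (mm10). All 31 were among the 16558 genes that passed a filter on low counts and were tested. RNA-seq was performed on the mucosa of ileum and colon from male C57BL/6J mice aged 8 weeks, with 3 Slc39a8-IEC KO mice (genotype Slc39a8-fl/fl:Villin-Cre) and 3 control mice (genotype Slc39a8-fl/fl on the labels) per tissue, 12 libraries in all. Both genotypes carry the floxed alleles. Slc39a8 encodes a metal transporter, and Villin-Cre acts in epithelial cells, so the deletion was not aimed at muscle cells. By the study's methods its controls were a mixture of genotypes without the deletion, whereas the labels give 1 genotype for these libraries. The labels and methods give 1 library per mouse and tissue and do not say whether an ileal and a colonic library come from the same mouse. Depth was between 16749138 and 27903083 counts per library. Levels are given as CPM, counts scaled to a library total of 1000000 after that total was multiplied by the library's TMM factor, which corrects for differences in composition. Slc39a8 itself was at 5.22 to 8.39 CPM in ileum control and 2.62 to 4.35 in ileum KO, and at 20.1 to 20.8 in colon control and 7.35 to 11.5 in colon KO, with no overlap in either tissue.

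Smooth muscle cells shorten when myosin heads, switched on by phosphorylation of their regulatory light chain, pull on actin filaments that are anchored in dense bodies and in adhesion plaques of the cell membrane. Calcium entry through voltage-gated channels starts the process through calmodulin and myosin light chain kinase, and myosin phosphatase ends it. Many of the genes are switched on together by serum response factor, which binds a short DNA element called the CArG box, with myocardin as its partner. In the intestine these cells form the muscle coat outside the mucosa and a thin layer, the muscularis mucosae, at its base, and also line blood vessels. The 31 genes fall into filament proteins (7 genes), thin filament regulators (5), myosin phosphorylation (2), intermediate filaments, dense bodies and adhesion (9), calcium and membrane excitability (4), small heat shock proteins (2) and regulators of the muscle programme (2).

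The first feature of the data was a pair of ileal libraries, Ileum control replicate 3 and Ileum KO replicate 1, in which most contractile transcripts were nearly missing. Summed over the 31 genes, CPM was 1618 and 1630 in these libraries, between 6306 and 8217 in the other 4 ileal libraries and between 6470 and 9475 in the 6 colonic libraries. One of the pair is a control and one a KO, so that each ileal group holds 1 of them. Because the pair was singled out by these transcripts, its values are given library by library and without a test. In such tissue libraries fewer muscle cells and less RNA per muscle cell cannot be told apart.

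**Figure D1:**
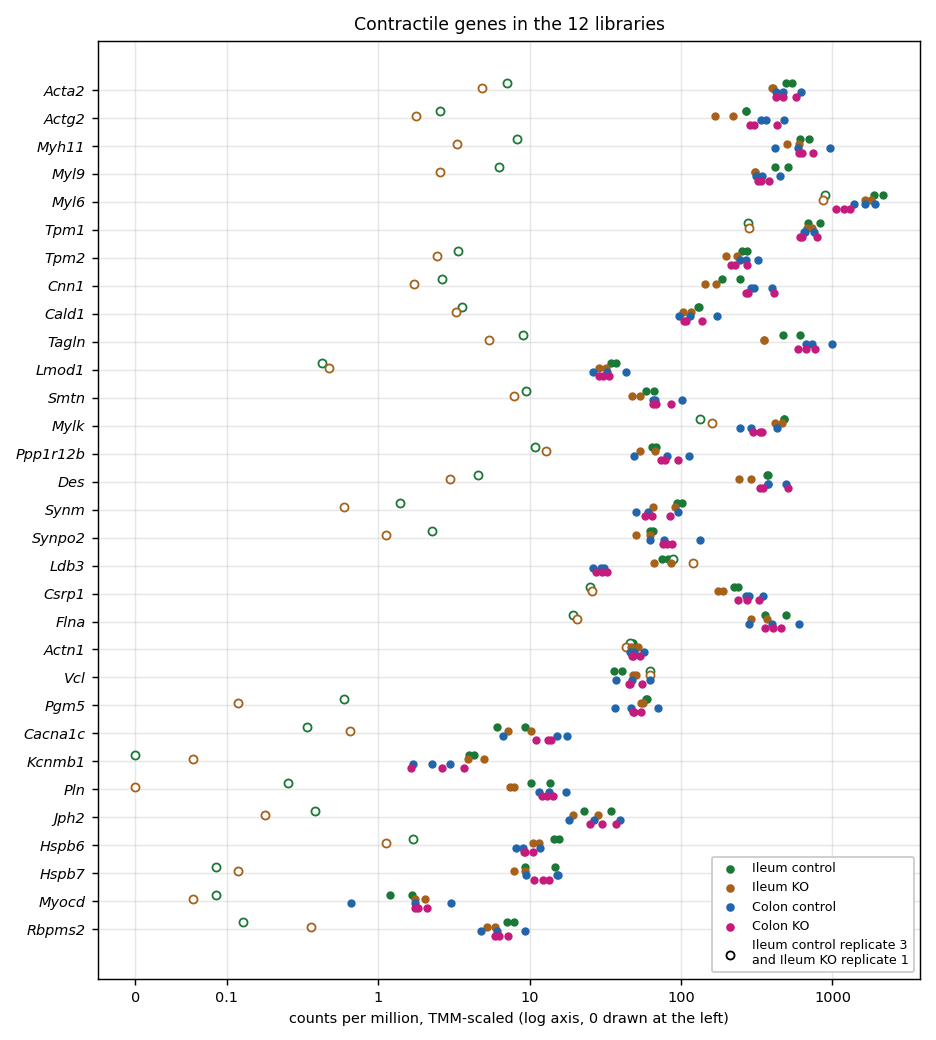
Level of each of the 31 contractile genes in the 12 libraries, as CPM scaled by TMM on a log axis, with the groups in 4 colours. Open circles are Ileum control replicate 3 and Ileum KO replicate 1, which lie far to the left of the filled circles for most genes (Acta2 at 7.14 and 4.89 against 398.1 or more in the other ileal libraries) but not for Ldb3, Vcl or Actn1.

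The filament proteins showed both extremes. Acta2, smooth muscle alpha-actin (chromosome 19, 34241090-34255590), was at 537.3 and 489.7 CPM in ileum control replicates 1 and 2 and at 7.14 in replicate 3, and at 403.9 and 398.1 CPM in ileum KO replicates 2 and 3 and at 4.89 in replicate 1. Myh11, the smooth muscle myosin heavy chain (chromosome 16, 14194535-14291372), was at 611 and 698.1 CPM in ileum control replicates 1 and 2 against 8.29 in replicate 3, and at 501.7 and 604.5 CPM in ileum KO replicates 2 and 3 against 3.34 in replicate 1. Both genes were therefore at less than 2% of the median of the other 4 ileal libraries in each library of the pair, 1.60% and 1.09% for Acta2 and 1.36% and 0.549% for Myh11. Actg2, the gamma-actin of enteric smooth muscle, was at 1.04% and 0.730% of that median, the regulatory light chain Myl9 at 1.73% and 0.704%, and the tropomyosin Tpm2 at 1.38% and 1.01%. In contrast, the light chain gene Myl6, whose product also serves non-muscle myosin, kept 48.7% and 47.2%, with 893 and 865 CPM in the pair against 1639 to 2157 in the other ileal libraries. Tpm1, a tropomyosin gene with isoforms in many cell types, kept 38.7% and 39.3%.

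Of the 31 genes, 20 were below 10% of the lowest of the other 4 ileal libraries in both libraries of the pair, whereas 2.50% of all 16558 genes tested were. A further 9 were below all 4 of the others by less than that, and 2 were above all 4. The share of all genes below or above all 4 is not given. These counts, and the like counts for other gene lists below, are therefore description only. The median gene of the 31 was at 2.83% of the median of the other ileal libraries in Ileum control replicate 3 and at 1.82% in Ileum KO replicate 1. Over all genes tested these medians were 96.9% and 97.4%.

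The thin filament regulators followed the actins. Calponin (Cnn1) was at 1.47% and 0.964% of the median of the other ileal libraries, transgelin (Tagln) at 2.18% and 1.31%, caldesmon (Cald1) at 2.91% and 2.68%, and leiomodin (Lmod1) at 1.27% and 1.43%. Smoothelin (Smtn) kept more, at 16.9% and 14.1%. The genes for myosin phosphorylation kept still more: Mylk, myosin light chain kinase, stood at 28.4% and 34.1%, with 133.9 and 161.1 CPM against 414.5 to 478.7, and Ppp1r12b, a targeting subunit of myosin phosphatase, at 16.5% and 19.6%.

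Genes of the cytoskeleton and of adhesion split into low and retained ones. Desmin (Des), the intermediate filament protein of muscle (chromosome 1, 75360329-75368579), was at 368.4 and 375 CPM in ileum control replicates 1 and 2 and at 4.55 in replicate 3, and at 241.2 and 287.7 CPM in ileum KO replicates 2 and 3 and at 2.98 in replicate 1. Its partner synemin (Synm) was at 1.51% and 0.641% of the median of the other ileal libraries, Pgm5, a protein of adhesion plaques, at 1.03% and 0.207%, and Synpo2, an actin-bundling protein, at 3.61% and 1.82%. Filamin A (Flna) was at 5.34% and 5.66% and Csrp1, a LIM protein, at 12% and 12.5%. Actn1 (alpha-actinin 1) was at 45.8 and 43.1 CPM against 47.1 to 52.4 in the other ileal libraries. Vcl (vinculin) was at 62.1 CPM in each of the pair and at 36.2 to 50.7 in the others. Ldb3, a PDZ and LIM protein of the Z-disc of striated muscle (chromosome 14, 34526603-34588682), was at 88.3 and 119 CPM in the pair and at 65.9 to 85.8 in the others. Vcl and Ldb3 were the 2 genes above all of the other ileal libraries.

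Genes for calcium handling and excitability were close to their detection floor in the pair. Kcnmb1, a subunit of the large-conductance potassium channel, had 0 counts in Ileum control replicate 3 and 1 in Ileum KO replicate 1, against 65 to 105 in the other ileal libraries. Pln, phospholamban, had 6 and 0 counts against 166 to 204. Jph2, junctophilin, had 9 and 3 against 344 to 622, and Cacna1c, the pore of the L-type calcium channel, had 8 and 11 against 91 to 216. Of the small heat shock proteins, Hspb7 had 2 counts in each library of the pair and Hspb6 had 40 and 19, against 141 to 267 and 234 to 270. Myocd, myocardin, had 2 and 1 counts against 18 to 45, and Rbpms2, an RNA-binding protein of smooth muscle, had 3 and 6 against 107 to 142.

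**Figure D2:**
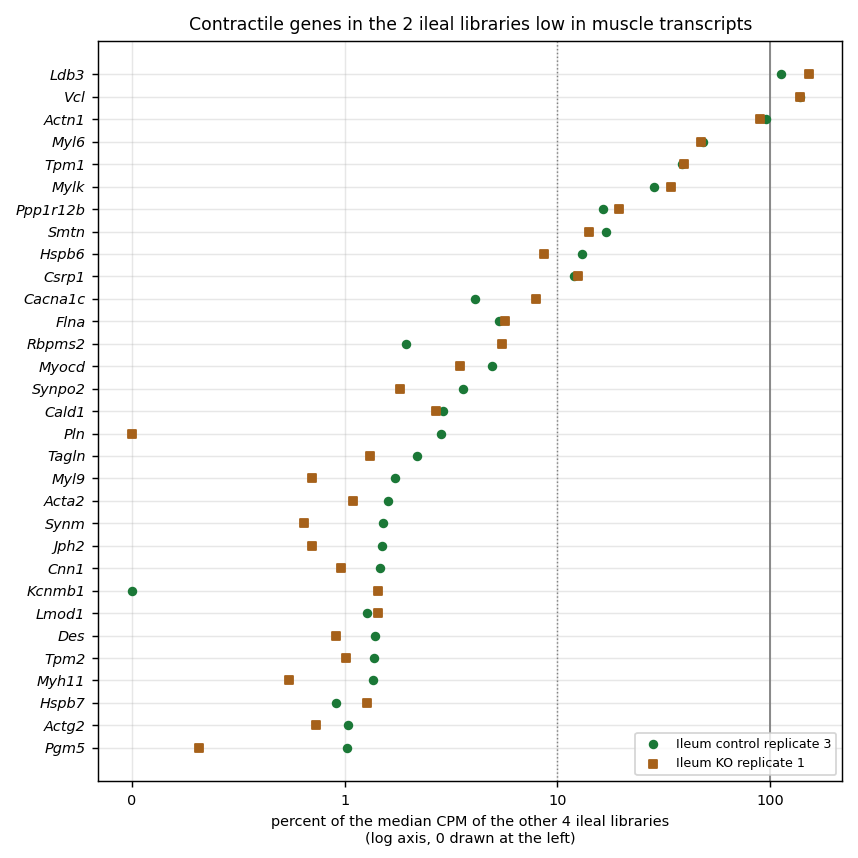
Level of each of the 31 genes in Ileum control replicate 3 and Ileum KO replicate 1 as a percent of the median level of the other 4 ileal libraries, on a log axis, ordered by the larger of the 2 percents. The solid line marks 100% and the dotted line 10%. Genes such as Actg2, Des and Myh11 lie near 1%, Myl6, Tpm1 and Mylk between 28.4% and 48.7%, and Actn1, Vcl and Ldb3 near or above 100%.

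Other genes of contraction, taken as a list of 40 named genes with roles in signalling, calcium, caveolae and adhesion, were lowered less uniformly. Of the 37 that were tested, 9 were below 10% of the lowest other ileal library in both libraries of the pair, 28, those 9 included, were below all 4 others, and 4 were above all of them. Casq2, a calcium store protein, was at 0.340 and 0.0596 CPM against 5.28 to 10.6, and the muscarinic receptor gene Chrm2 at 0.425 and 0.298 against 9.15 to 14. The 4 that were above were Mrtfa, Mrtfb, Chrm3 and Fhl1. Fhl1, a LIM protein, was at 174 and 142 CPM against 30.1 to 89.9.

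The markers of other cell types also differed in the pair. All 4 mesothelial markers were below all of the other ileal libraries, with summed CPM of 1.49 and 1.67 against 32.4 to 126, as were all 6 fibroblast markers (43.3 and 40.8 against 313 to 599), all 4 glial markers (0.722 and 0.537 against 3.32 to 5.44) and 8 of 10 neuronal markers (7.18 and 9.18 against 25.2 to 36.7). Summed epithelial markers were at 19200 and 20200 CPM, against 19900 to 23800 in the others, with 2 of 8 below all of the others and 1 above. Leukocyte markers summed to 155 and 144 CPM against 482 to 873, with 3 of 5 below all of the others and 1 above. Endothelial markers summed to 13.3 and 11 against 4.46 to 10.1, with 2 of 4 above all of the others. Pericyte markers summed to 10.2 and 8.29 CPM against 209 to 330, with 3 of 5 below all of the others. Markers of interstitial cells of Cajal summed to 27.1 and 23.5 against 24.7 to 36.6, with 2 of 3 below and 1 above. Striated muscle markers summed to 10.8 and 16.1 CPM against 40.8 to 69.3, with 2 of 9 below all of the others. Only 3 of these 9 passed the filter on low counts. Of the defining markers, Actc1, Myh4, Myh6 and Tnnt3 of striated muscle had 0 counts in both libraries of the pair, and no marker of the other lists did. The levels of these genes in the other libraries are not given, so their 0 counts do not show a loss. The part of any cell type in the low muscle transcripts was not tested.

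The promoters of the members are given only as description. RefSeq promoter windows (GRCm38.p6) were at hand for 27 of the 31 genes, with Actg2, Myh11, Tagln and Myocd not matched. Each window ran from 250 bases before to 50 bases after a RefSeq start. Such a start need not be the outermost start of the gene. A strict CArG box, read on both strands, was found in the windows of 4 of the 27 genes, or 14.8%, and in 1.81% of the 27025 genes with a window. All 4 are shown. Ldb3, Vcl and Myl6 were among the genes that kept the most in the pair, and Myl9 was not. Actg2, Myh11 and Tagln, all low in the pair, could not be searched. Whether the box goes with the level was not tested, and 4 genes are too few to tell. Each stretch of 50 bases reads 5′ to 3′ on the gene's own strand, with the CArG box in capitals, and a match is not evidence that the factor binds there.
Ldb3, chr14:34588687-34588736, minus strand: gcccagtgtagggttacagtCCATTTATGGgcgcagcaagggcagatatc
Myl6, chr10:128493030-128493079, minus strand: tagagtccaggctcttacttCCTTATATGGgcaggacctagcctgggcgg
Vcl, chr14:20929151-20929200, plus strand: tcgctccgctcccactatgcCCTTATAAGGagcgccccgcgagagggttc
Myl9, chr2:156775283-156775332, plus strand: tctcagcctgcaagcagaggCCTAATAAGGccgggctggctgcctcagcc
Counted from the RefSeq start of its window, the first base of the box lay at position -35 in Ldb3, -50 in Myl6, -227 in Vcl and -161 in Myl9. In GENCODE M21 the Myl6 gene spans 128490860-128494145 on the minus strand. Its stretch therefore lies inside the annotated gene, downstream of the outermost start.

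In the colon, where no library stood apart in this way, the levels of the genes could be ranked per length. In colon control, as TPM, counts per length over the union of a gene's exons scaled to the same total in every library, Myl6 was highest at 1182 ± 93.0 (SD, n = 3), followed by Tagln at 937 ± 266, Myl9 at 745 ± 211, Actg2 at 590 ± 152 and Acta2 at 540 ± 157. The ranges of neighbours in this order overlapped, Myl6 running from 1083 to 1268 TPM and Tagln from 733 to 1238. Myh11 was at 206 ± 103 TPM and Des at 258 ± 61.7. At the other end stood Cacna1c at 1.49 ± 0.757, Kcnmb1 at 1.30 ± 0.475 and Myocd, the transcriptional co-activator, at 0.683 ± 0.478 TPM. With the longest transcript as the length, Tpm1 moved from 247 to 466 TPM and Cald1 from 25.2 to 53.5.

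The comparison the study was designed for is KO against control, and in it none of the 31 genes was called in either tissue. The threshold was an adjusted p under 0.1 by edgeR's quasi-likelihood test with Benjamini-Hochberg adjustment over the 16558 genes. In ileum 0 of the 31 were called, with a background of 0.00% of all genes, and 0 of the 31 had an unadjusted p under 0.05 (252 genes in all). In colon 0 were called (background 0.00%), and 0 had an unadjusted p under 0.05 (385 genes in all). In a model of both tissues together 0 were called (background 0.00%), and for the difference of the KO effect between colon and ileum again 0 (background 0.00%). DESeq2 and limma-voom called 0 of the 31 in each of these 4 comparisons. Because edgeR called no gene at all in them, the deleted gene Slc39a8 was not called either. Yet its KO and control levels did not overlap in either tissue. The study, with ileum and colon combined, did report Slc39a8 as lowered in KO mice. The edgeR test thus missed a known difference, and its count of 0 does not show that the 31 genes are unaffected.

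In ileum the log2 fold change, KO over control, was -0.36 (SE 1.24) for Acta2, -0.25 (SE 1.32) for Myh11 and -0.49 (SE 1.25) for Des, each with an adjusted p of 1 by edgeR. The pair of low libraries, 1 in each group, enters these standard errors. The exact permutation test of the same genes, two-sided on log2 CPM plus 0.5, gave p = 0.5 for each of the 3, where 3 mice against 3 cannot go below 0.1. The median log2 fold change of the 31 genes was -0.26, beside -0.00194 over all genes. This median was decided by single libraries: without Ileum control replicate 3 it was -0.82, without Ileum KO replicate 1 it was 0.19, without Ileum control replicate 1 it was 0.08 and without Ileum control replicate 2 it was 0.14, while without Ileum KO replicate 2 or 3 it was -0.53 and -0.72.

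With both libraries of the pair left out, the ileal comparison rests on 2 mice per genotype. The median over the 31 genes was then -0.28, with 26 of 31 below 0, and 0 were called by edgeR (background 0.0178%). Markers of other cell types, of which none was called here, had medians of -0.37 for fibroblasts, -0.235 for pericytes, -0.65 for glia, -0.345 for neurons, -0.455 for interstitial cells of Cajal, -0.81 for mesothelium, -0.12 for endothelium, -0.30 for striated muscle, 0.12 for epithelium and 0.31 for leukocytes, and their part was not tested. The 5 of 31 genes with an unadjusted p under 0.05, beside 4.98% of all genes, included Myl9, with a log2 fold change of -0.60 (SE 0.19), Pln with -0.65 (SE 0.22) and Tagln with -0.63 (SE 0.22), each with an adjusted p of 0.952 by edgeR. Acta2 was at -0.37 (SE 0.20), Myh11 at -0.25 (SE 0.30) and Des at -0.50 (SE 0.22). Myl9 was at 507.2 and 418.8 CPM in the 2 control libraries and at 306.5 and 309.3 in the 2 KO libraries. Tagln was at 609.7 and 473 CPM against 354.4 and 353.3. After adjustment over all genes, none of these differences passed the threshold of 0.1.

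In colon the values of control and KO overlapped for 30 of the 31 genes. Acta2 was at 424.1, 621.8 and 469.4 CPM in the control replicates 1 to 3 and at 424.3, 470.4 and 577.7 CPM in the KO replicates 1 to 3. Myh11 was at 417.4, 967.1 and 590.6 CPM against 627, 601 and 744.6, and Des at 376.1, 491 and 375.1 CPM against 334.4, 350 and 507.3. For Acta2 and Myh11 the lowest and the highest colonic value both came from control libraries, replicate 1 and replicate 2. In the 6 colonic libraries alone, where the pair of ileal libraries no longer enters the estimate of the spread, the log2 fold change was -0.05 (SE 0.17) for Acta2, -0.01 (SE 0.26) for Myh11 and -0.06 (SE 0.18) for Des, and 0 of the 31 were called by edgeR (background 0.00637%). The exact permutation test, two-sided, gave p = 1, 0.8 and 0.6 for these 3 genes. Leaving out Colon control replicate 2 moved the median over the 31 from -0.06 to 0.14, and leaving out replicate 1 moved it to -0.21.

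Myl6 was the 1 gene of the 31 whose colonic groups did not overlap, where 12.8% of all genes tested showed no overlap in either direction. It was at 1903, 1635 and 1380 CPM in colon control and at 1187, 1314 and 1057 in colon KO, with a log2 fold change of -0.47 (SE 0.16) and an adjusted p of 0.567 by edgeR in the 6 colonic libraries. Over both tissues without the pair, 0 of the 31 were called by edgeR (background 0.0296%), whereas DESeq2 called Myl6 alone (background 1.71%), with a log2 fold change of -0.37 (SE 0.12) and an adjusted p of 0.0970. Some 5.42% of the 75-base windows of Myl6 transcripts also occur in other genes, so a part of its counts can depend on how shared reads were divided.

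**Figure D3:**
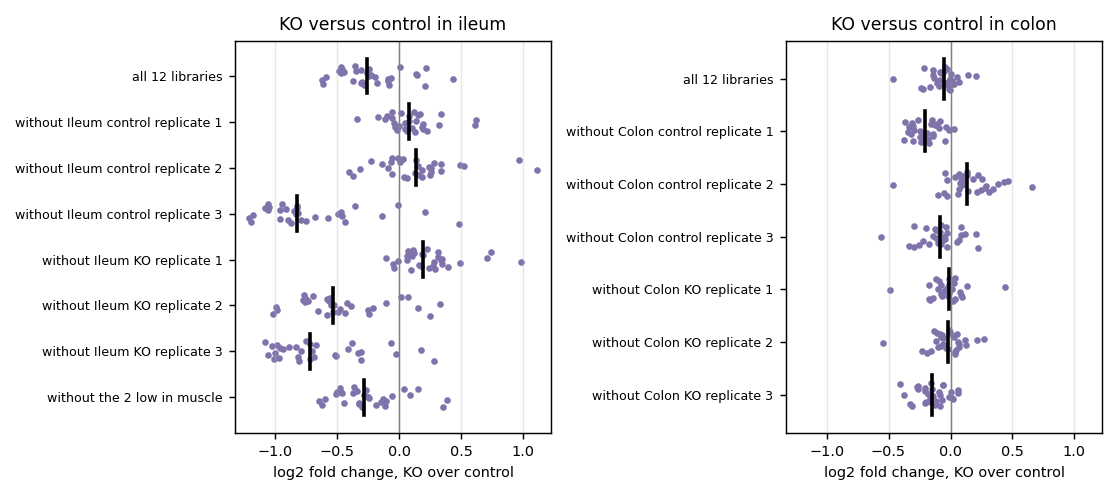
Log2 fold change, KO over control, of the 31 genes (points) with all 12 libraries and with libraries of that tissue left out, in ileum and in colon. Black bars are medians over the 31 genes. In ileum the median runs from -0.82 to 0.19 as single libraries are left out, and in colon from -0.21 to 0.14.

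Colon and ileum were compared within each genotype. With all 12 libraries, 1 of the 31 genes was called in control mice, beside 35.9% of all genes, and the same gene alone in KO mice, beside 37.1%. This was Ldb3. Its level was 74.6, 82.4 and 88.3 CPM in ileum control and 119, 65.9 and 85.8 in ileum KO, against 26.4, 30.9 and 29.7 in colon control and 32.6, 27.4 and 30.1 in colon KO. All 6 ileal values lay above all 6 colonic ones. The log2 fold change, colon over ileum, was -1.50 (SE 0.19) with an adjusted p of 1.33e-04 by edgeR in control mice and -1.59 (SE 0.19) with 8.74e-05 in KO mice. The other genes had large errors in this comparison: Acta2 was at 0.55 (SE 1.24) in control and 0.87 (SE 1.24) in KO mice, Myh11 at 0.58 (SE 1.32) and 0.83 (SE 1.33), and Des at 0.73 (SE 1.26) and 1.16 (SE 1.27), with adjusted p by edgeR between 0.522 and 0.771.

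Without the pair the tissues separated by gene. In control mice 7 of the 31 genes were called (background 42.0%), 3 higher and 4 lower in colon, and in KO mice 9 (background 43.2%), 7 higher and 2 lower. Over both genotypes together, a comparison added after the values were seen, 9 were higher in colon (background 29.8%) and 5 lower (background 29.2%), so that the share of called genes among the 31 was no higher than among all genes. Their median log2 fold change was 0.13, beside 0.04 over all genes. The pair had been singled out by these same transcripts, which bears on every value computed without it.

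Those higher in colon were thin filament proteins and others. Cnn1, the actin-binding inhibitor calponin (chromosome 9, 22099216-22109630), ran from 144.5 to 246.4 CPM with a median of 179.3 in the 4 ileal libraries and from 267.1 to 413.4 with a median of 297.6 in the 6 colonic ones, without overlap. Its log2 fold change was 0.80 (SE 0.16), with an adjusted p of 0.00123 by edgeR. Tagln, another calponin-family protein (chromosome 9, 45929619-45936058), ran from 353.3 to 609.7 CPM in ileum and from 591.1 to 996.1 in colon, overlapping by 1 ileal library, and its log2 fold change was 0.74 (SE 0.15). Actg2 (chromosome 6, 83512905-83536265) ran from 168.4 to 269.9 CPM in ileum and from 283.3 to 478.9 in colon, without overlap, and rose by 0.67 (SE 0.15) on the log2 scale. Smaller differences past the threshold were those of Cacna1c (0.65, SE 0.24), Synpo2 (0.51, SE 0.17), Pln (0.51, SE 0.16), Csrp1 (0.49, SE 0.12), Smtn (0.41, SE 0.14) and Des (0.36, SE 0.15). Des was not called when Colon control replicate 2, Ileum KO replicate 2 or Ileum KO replicate 3 was also left out, nor Cacna1c without Ileum control replicate 1.

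Those lower in colon were spread over different groups of the gene list. Ldb3 was lower by a log2 fold change of -1.39 (SE 0.10), with an adjusted p of 1.12e-07 by edgeR. Kcnmb1 ran from 3.95 to 4.97 CPM in the 4 ileal libraries and from 1.65 to 3.69 in the 6 colonic ones, at -0.80 (SE 0.23). Mylk ran from 414.5 to 478.7 CPM in ileum and from 246.2 to 430.3 in colon, at -0.51 (SE 0.14). Hspb6 was at -0.42 (SE 0.14) and Myl6 at -0.42 (SE 0.13). Kcnmb1 did not overlap between the tissues, whereas Mylk overlapped through Colon control replicate 2. In the pair low in muscle transcripts, Ldb3 was at 113% and 152% of the median of the other ileal libraries. Myl6 was there at 48.7% and 47.2%, Mylk at 28.4% and 34.1%, Hspb6 at 13.1% and 8.71% and Kcnmb1 at 0% and 1.43%. Which cells carry these tissue differences was not tested.

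Both actin and myosin markers in commonest use, Acta2 and Myh11, and several filament genes did not pass the test between the tissues with TMM scaling. Acta2 was at a log2 fold change of 0.13 (SE 0.13), Myh11 at 0.12 (SE 0.19), Myl9 at -0.09 (SE 0.14), Tpm1 at -0.11 (SE 0.11), Tpm2 at 0.11 (SE 0.11), Cald1 at 0.03 (SE 0.15) and Lmod1 at -0.03 (SE 0.12). In the remaining genes that were not called, the log2 fold change lay between -0.36 for Synm and 0.36 for Ppp1r12b.

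The scaling of the libraries moved the balance of these calls, but turned the sign of none of the 14 genes. With TMM, 59.0% of all genes were called in either direction. With library size alone, 20 of the 31 were called higher in colon and 1, Ldb3, lower (background 67.1% in either direction), and the median log2 fold change over all genes moved from 0.04 to 0.36. Acta2, at 0.46 (SE 0.15), and Myh11, at 0.46 (SE 0.21), were among those 20, with adjusted p by edgeR of 0.0190 and 0.0769. Upper-quartile scaling gave 11 higher and 5 lower (background 60.5%), and RLE scaling 9 and 6 (background 58.8%). Ldb3, Tagln, Cnn1, Actg2, Csrp1, Pln, Smtn and Synpo2 were called in all 15 alternatives, 10 of which left out 1 further library each, while Mylk, Kcnmb1, Myl6 and Hspb6 were not called with library size alone. All 15 leave out the pair that these transcripts singled out, so they are not independent support. With all 12 libraries edgeR called 1 of the 31 over both genotypes, lower in colon.

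**Figure D4:**
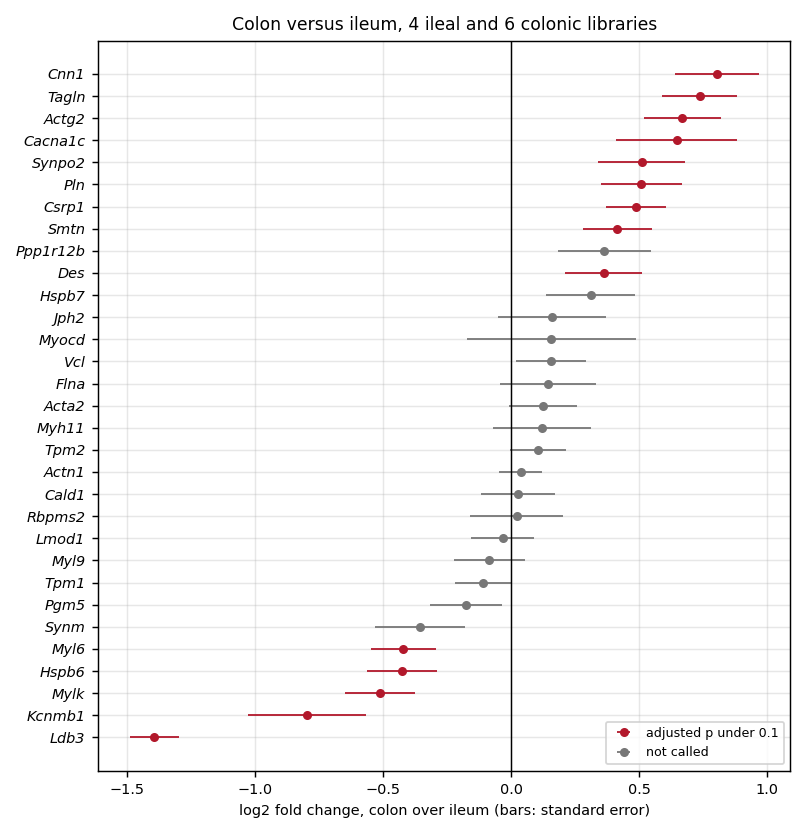
Log2 fold change, colon over ileum, of the 31 genes over both genotypes in 4 ileal and 6 colonic libraries, with bars for the standard error. Genes with an adjusted p under 0.1 by edgeR are in red: 9 lie to the right of 0, led by Cnn1 at 0.80, and 5 to the left, with Ldb3 farthest at -1.39.

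A ratio of 2 genes in the same library needs no scaling and can be read in all 12 libraries. The ratios to Acta2 were chosen after the values were seen and are given without a test. Actg2 counts over Acta2 counts were 0.502, 0.550 and 0.357 in ileum control, 0.366, 0.417 and 0.555 in ileum KO, 0.856, 0.770 and 0.720 in colon control and 0.668, 0.648 and 0.747 in colon KO. Every colonic value lay above every ileal value, those of the low pair included (0.357 and 0.366). The ratio of Cnn1 to Acta2 ran from 0.354 to 0.459 in the 6 ileal libraries and from 0.568 to 0.719 in the 6 colonic ones. That of Tagln to Acta2 ran from 0.877 to 1.26 in ileum and from 1.33 to 1.72 in colon. In contrast, Ldb3 over Acta2 was 0.139 to 0.216 in 4 ileal libraries, 12.4 and 24.4 in the pair and 0.0498 to 0.0768 in colon.

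**Figure D5:**
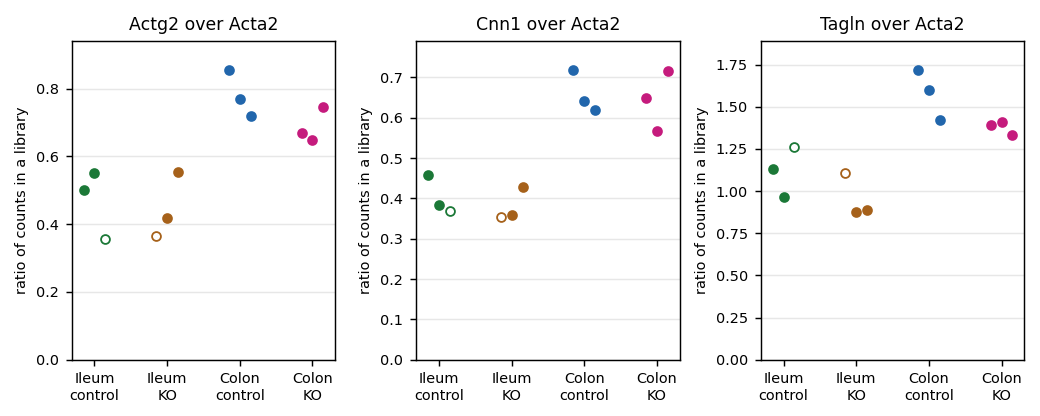
Ratio of the counts of Actg2, Cnn1 and Tagln to those of Acta2 in each library, by group, with axes from 0. Open circles are Ileum control replicate 3 and Ileum KO replicate 1. For each gene the 6 colonic points lie above the 6 ileal points, for Actg2 at 0.648 or more against 0.555 or less.

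Of the 37 other genes of contraction tested without the pair, 15 were higher and 8 lower in colon by edgeR, beside 59.0% of all genes called in either direction, and with library size alone 26 and 6, beside 67.1%. Htr2b, a serotonin receptor, was at a log2 fold change of 2.27 (SE 0.26) and Fhl1 at 2.06 (SE 0.25), while Srf, serum response factor, was at -0.93 (SE 0.10). Markers of other cell types moved as well: 8 of 10 neuronal, 4 of 4 glial, 3 of 3 interstitial cell of Cajal and 3 of 4 endothelial markers were higher in colon, whereas 8 of 8 epithelial and 4 of 5 leukocyte markers were lower. Of the fibroblast and pericyte markers, 1 of 6 and 2 of 5 were higher and none was lower. Of the 4 mesothelial markers 1, Upk3b, was lower, and of the 4 striated muscle markers tested 2 were higher and 2, Acta1 and Mylpf, lower. Their part in the tissue differences of the 31 genes was not tested.

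Reads of 10 of the 31 genes, among them Des, Mylk, Tagln, Pln and Vcl, can fall on exons of an annotated gene of the opposite strand. The sources used here do not state whether the counting used the strand, and such reads cannot be assigned with certainty.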

How the data were processed

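The authors deposited 1 table of expected counts per gene, estimates of reads that need not be whole and are not normalized. The labels name STAR and mm10, RNA was primed with oligo-dT, and no source used here names the tool that estimated them. The study's reporting form names uniquely mapped reads, UMI-based removal of duplicates and FeatureCounts. The 92 spike-in lines were left out, and values were rounded to integers before testing. Tests used edgeR 4.0.16 (R 4.3.3) with filterByExpr over the 4 groups, TMM factors, glmQLFit and glmQLFTest, with p-values adjusted by Benjamini-Hochberg over all genes tested and a threshold of 0.1. The standard error is the log2 fold change divided by the square root of the F statistic. Alternatives used DESeq2 1.42.0, limma-voom (limma 3.58.1), other scaling and fewer libraries. Figures used matplotlib 3.10.9 in Python 3.11.15. The method was tested on simulated data.

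The 31 genes and all gene lists were chosen with earlier results of these data known. All 31 genes are named with a level. Fold changes are given for Acta2, Myh11 and Des in each comparison and for genes that were called, at most 10 by the smallest p, while other genes with a fold change were chosen after their values were seen. The deviations of same-numbered libraries had correlations of both signs, from -0.69 to 0.40, and the numbers were not taken as pairs. Between ileum and colon of KO mice the correlations were 0.19, 0.05 and 0.25, which does not settle whether libraries share a mouse. Of the 31 gene identifiers, 27 carried the same version as in GENCODE M21 and the others were matched without it. The design set the pair of ileal libraries apart as a description without a test, because its muscle transcripts singled it out. Fits without the pair are alternatives to the tests of the design, which used all 12 libraries. P-values measure the spread between libraries, which within 1 tissue are different mice. Fits over both tissues treat every library as independent, and whether some share a mouse is not known.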

Additional observations from a re-analysis of the deposited data

How the results depend on the processing

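The count of genes called stayed within 1.5 times of the value given in 141 alternatives, was larger in 3 and smaller in 2. The values given were 0 in each KO comparison, where no gene at all was called, and 1 in colon against ileum within each genotype. A count of 0 that stays at 0 is therefore weak support. Without both ileal libraries low in muscle transcripts, the number called between colon and ileum was 7 rather than 1 in control mice and 9 rather than 1 in KO mice. With library size alone it was 2 in KO mice with all 12 libraries. Without the pair, library size alone gave 12 in control mice and 15 in KO mice. Over both genotypes the number called was 14 without the pair and 1 with all 12 libraries, and 13 to 16 as 1 further library was left out. With all 12 libraries it also depended on the test, DESeq2 calling 2 and limma-voom 12, of which 11 were higher in colon. Whether the replicate numbers shared by the groups pair the libraries is not known. A fit with the number as a replicate block called 1 gene of the 31 in each tissue comparison and 0 for KO against control. It turned the colonic log2 fold change of Acta2 to 0.000781 and of Myh11 to 0.129.

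The signs of uncalled values turned with single libraries. As 1 library was left out, the log2 fold change for KO against control ran in ileum from -0.944 to 0.221 for Acta2, -0.834 to 0.335 for Myh11 and -1.08 to 0.0876 for Des. In colon it ran from -0.159 to 0.136, -0.244 to 0.384 and -0.259 to 0.0812, over both tissues from -0.441 to 0.0756, -0.368 to 0.149 and -0.512 to 0.00572, and the difference of the effects from -0.262 to 0.918, -0.337 to 0.85 and -0.148 to 1.03, in the same order of genes. Between colon and ileum in control mice it ran from -0.0423 to 1.02 for Acta2 and from -0.0113 to 1.09 for Myh11, and without the pair it was -0.0443 and -0.0133. In colon, KO against control, library size alone gave 0.0553 for Acta2, 0.0806 for Myh11 and 0.0437 for Des. For Myh11 there, RLE scaling gave 0.000864, no filter 0.0251, DESeq2 0.00277, limma-voom 0.0783 and the fit without the pair 0.0164. The cause was not tested. With all 12 libraries the median standard error of the 31 genes for KO against control in ileum was 1.07 on the log2 scale, and without the pair, with 2 libraries per group, it was 0.223.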
